A study of Mus musculus with 8 samples.

Results

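Dlk1, Meg3, Rian and Mirg are 4 of the 55422 features counted in single cells of chimaeric mouse embryos, and were taken by their symbols, each of which matched 1 feature. They are the main transcripts of the Dlk1-Meg3 imprinted cluster on chromosome 12. In the GRCm38 (mm10) annotation Dlk1 (ENSMUSG00000040856) is a protein-coding gene at chr12:109452823-109463336, Meg3 (ENSMUSG00000021268) a long non-coding RNA at chr12:109541001-109571726, Rian (ENSMUSG00000097451) a processed transcript at chr12:109603940-109661716 and Mirg (ENSMUSG00000097391) a long non-coding RNA at chr12:109729764-109749460. All 4 lie on the plus strand, within 297 kb.

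Single-cell RNA-seq (10x Genomics 3′ v3) was carried out on sorted cells of chimaeras made by injecting ES cells into C57BL/6J host blastocysts, which were then carried by pseudopregnant CD1 females. The injected cells, called Tet-TKO, lack Tet1, Tet2 and Tet3, the dioxygenases that start active DNA demethylation. They came from 1 line on a mixed C57BL/6J and 129Sv background that was grown in 2i/LIF and carried an H2B-tdTomato reporter under the CAG promoter. Pooled embryos were sorted into a tdTomato+ fraction (Tet-TKO) and a tdTomato- fraction (WT host), which gave 2 WT host and 4 Tet-TKO libraries at E8.5, and at E7.5 1 library of each genotype. All groups were cells of chimaeras, and no chimaera with injected WT ES cells was analysed here, so genotype, strain and ES cell origin cannot be told apart. Both fractions were sorted from the same pools, but the sources used here do not say which of the 4 Tet-TKO libraries goes with which of the 2 WT host libraries, so p-values measure the spread between libraries taken as separate samples.

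At E8.5 between 1012 and 9552 cells per library were kept, and the libraries held 65601218 to 136982886 unique molecular identifiers (UMIs). The median kept cell had 40387 UMIs in Tet-TKO library 3 and 68704 in library 4, against 12176 to 18763 in the other E8.5 libraries. A tdTomato UMI was found in 60.8% to 87.2% of the cells of the Tet-TKO libraries and in 0.532% to 0.841% of the WT host cells. UMIs of all 3 deleted genes were found in the Tet-TKO. At E8.5 Tet1 was at 9.93 to 20.9 CPM (UMIs of a gene scaled to a fixed library total), Tet2 at 5.55 to 10.5 CPM and Tet3 at 22.5 to 37.5 CPM, whereas the WT host had 20.4 to 22.5, 4.63 to 4.67 and 23.1 to 23.2 CPM, and since 3′ tags need not cover the deleted parts, these levels do not check the labels. Between 0 and 28 cell barcodes were shared by a pair of libraries, at most 0.43% of the smaller one. Cell groups, called classes, were rebuilt by clustering without the 4 genes and named from marker lists, so a class name such as endothelium-like rests on those markers. Levels are CPM, a gene’s UMIs relative to all UMIs in the summed cells of a class in a library.

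An imprinted gene is expressed from the chromosome of 1 parent. In this cluster the choice depends on an intergenic region that carries DNA methylation on the paternal copy. Dlk1 is expressed from the paternal chromosome and encodes a transmembrane protein with EGF-like repeats, related to Notch ligands, that is known from immature mesenchymal and endocrine cells. Meg3, Rian and Mirg are non-coding RNAs expressed from the maternal chromosome. Rian hosts small nucleolar RNAs and Mirg hosts a large group of microRNAs. Counts from 3′ tags do not tell the parental copies apart, and no DNA methylation was measured in these libraries.

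The sequences around the start sites are shown because the 4 genes shared much of their pattern over classes and because the CG dinucleotides, the bases at which DNA methylation and the TET enzymes act, differ in number between them. Each window runs from 250 bases before to 50 bases after a RefSeq start (assembly GRCm38.p6, plus strand), with CG in capitals. The windows are chr12:109452573-109452872 for Dlk1, chr12:109540746-109541045 for Meg3, chr12:109603695-109603994 for Rian and chr12:109734731-109735030 for Mirg. The Mirg window lies inside the annotated gene, which starts at 109729764, and covers the microRNAs Mir668 and Mir485. Its bases thus describe this RefSeq start and not the annotated start of Mirg.
Dlk1: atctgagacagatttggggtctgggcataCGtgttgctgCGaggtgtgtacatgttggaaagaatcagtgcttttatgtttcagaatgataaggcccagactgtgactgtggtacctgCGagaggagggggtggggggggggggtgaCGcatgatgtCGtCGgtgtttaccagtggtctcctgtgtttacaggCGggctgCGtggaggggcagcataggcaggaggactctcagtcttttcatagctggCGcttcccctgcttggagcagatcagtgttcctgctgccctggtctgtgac
Meg3: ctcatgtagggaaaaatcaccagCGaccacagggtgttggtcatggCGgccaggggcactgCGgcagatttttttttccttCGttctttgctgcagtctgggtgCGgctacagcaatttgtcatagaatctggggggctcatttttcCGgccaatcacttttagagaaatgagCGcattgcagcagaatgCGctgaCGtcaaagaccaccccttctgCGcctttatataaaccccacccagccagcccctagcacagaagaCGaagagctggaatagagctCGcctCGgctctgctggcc
Rian: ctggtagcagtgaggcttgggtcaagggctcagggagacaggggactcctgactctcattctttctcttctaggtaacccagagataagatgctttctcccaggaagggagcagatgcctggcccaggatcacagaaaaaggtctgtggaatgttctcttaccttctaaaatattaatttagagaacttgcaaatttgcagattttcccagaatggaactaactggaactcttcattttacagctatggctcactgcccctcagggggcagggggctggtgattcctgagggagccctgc
Mirg: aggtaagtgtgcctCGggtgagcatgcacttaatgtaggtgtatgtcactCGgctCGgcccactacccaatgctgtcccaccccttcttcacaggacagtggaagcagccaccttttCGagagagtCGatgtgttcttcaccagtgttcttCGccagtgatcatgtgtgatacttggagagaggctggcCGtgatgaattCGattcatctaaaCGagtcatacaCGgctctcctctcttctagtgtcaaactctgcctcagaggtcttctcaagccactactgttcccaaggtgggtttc
The Dlk1 window held 9 CG dinucleotides, the Meg3 window 13, the Mirg window 10 and the Rian window 0, beside a median of 7 over 32851 windows of the same length. A window without CG was found in 5.43% of them. A further RefSeq start of Meg3, at chr12:109545148-109545447, had 1 CG. The Meg3 window also held TATAAA, TGACGTCA and CCAAT, and the Mirg window held CCAAT, searched on both strands. These letters were chosen after the windows had been read. TATAAA was present in 13.6% of all windows, TGACGTCA, which itself contains a CG, in 1.79% and CCAAT in 37.4%.

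First, the levels in WT host cells were compared over the classes of E8.5. The highest level of each gene was in mesenchyme-like cells (leading genes Postn, Dkk2 and Col5a2). There Dlk1 reached 1323 and 1832 CPM in the 2 WT host libraries, Meg3 1776 and 2242 CPM, Rian 346 and 387 CPM, and Mirg 30.5 and 39.4 CPM. The next classes for Dlk1 were extraembryonic (ExE) mesoderm-like at a mean of 657 CPM, haematoendothelial progenitor-like at 462 CPM, allantois-like at 399 CPM and lateral plate mesoderm-like at 353 CPM. The same classes followed for Meg3, with haematoendothelial progenitor-like at 1378 CPM, ExE mesoderm-like at 1070 CPM, lateral plate mesoderm-like at 751 CPM and allantois-like at 736 CPM. Visceral and yolk sac endoderm-like cells, present at 10 or more cells only in the WT host libraries, had 304 CPM of Dlk1, 698 CPM of Meg3 and 251 CPM of Rian. The classes with the highest levels were thus those of extraembryonic and lateral mesoderm and of yolk sac endoderm.

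At the low end, the genes parted. Dlk1 was at 9.22 CPM in midbrain and hindbrain boundary-like, 9.42 CPM in hindbrain-like, 10.1 CPM in spinal cord-like and 14.2 CPM in forebrain-like cells of the WT host, whereas Meg3 stood at 207, 283, 173 and 350 CPM in these classes. In somite and paraxial mesoderm-like cells Dlk1 was at 10.3 CPM and Meg3 at 158 CPM. The lowest mean of Dlk1, 4.18 CPM, was in cluster 33, an unnamed cluster, and rests on 3 and 2 UMIs, where free RNA, carried in droplets from broken cells and estimated from haemoglobin UMIs in neural cells, would alone give 4.76 and 4.43 CPM. Among whole classes Meg3 and Rian were lowest in blood progenitor-like cells, at 16.1 and 6.32 CPM, where free RNA would give 13.4 and 11.4 CPM of Meg3 and 3.30 and 2.46 CPM of Rian in the 2 libraries. Meg3 was thus at 1.44 and 1.13 times and Rian at 2.09 and 2.33 times free RNA. The single erythroid-like clusters 1 and 3 lay lower still, with 6.21 to 9.91 CPM of Meg3 and 2.65 to 4.33 CPM of Rian. Their Meg3 lay below the free RNA estimate, which is thus too high for some cells, so ratios to it are only approximate. Mirg had no UMI in the notochord-like cells of either WT host library. Of the 25 pairs of neighbours in the order of 26 classes, the 2 WT host libraries did not overlap in 10 pairs for Dlk1, 8 for Meg3, 8 for Rian and 4 for Mirg, so many neighbours in these orders did not differ beyond the spread between libraries.

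**Figure D1:**
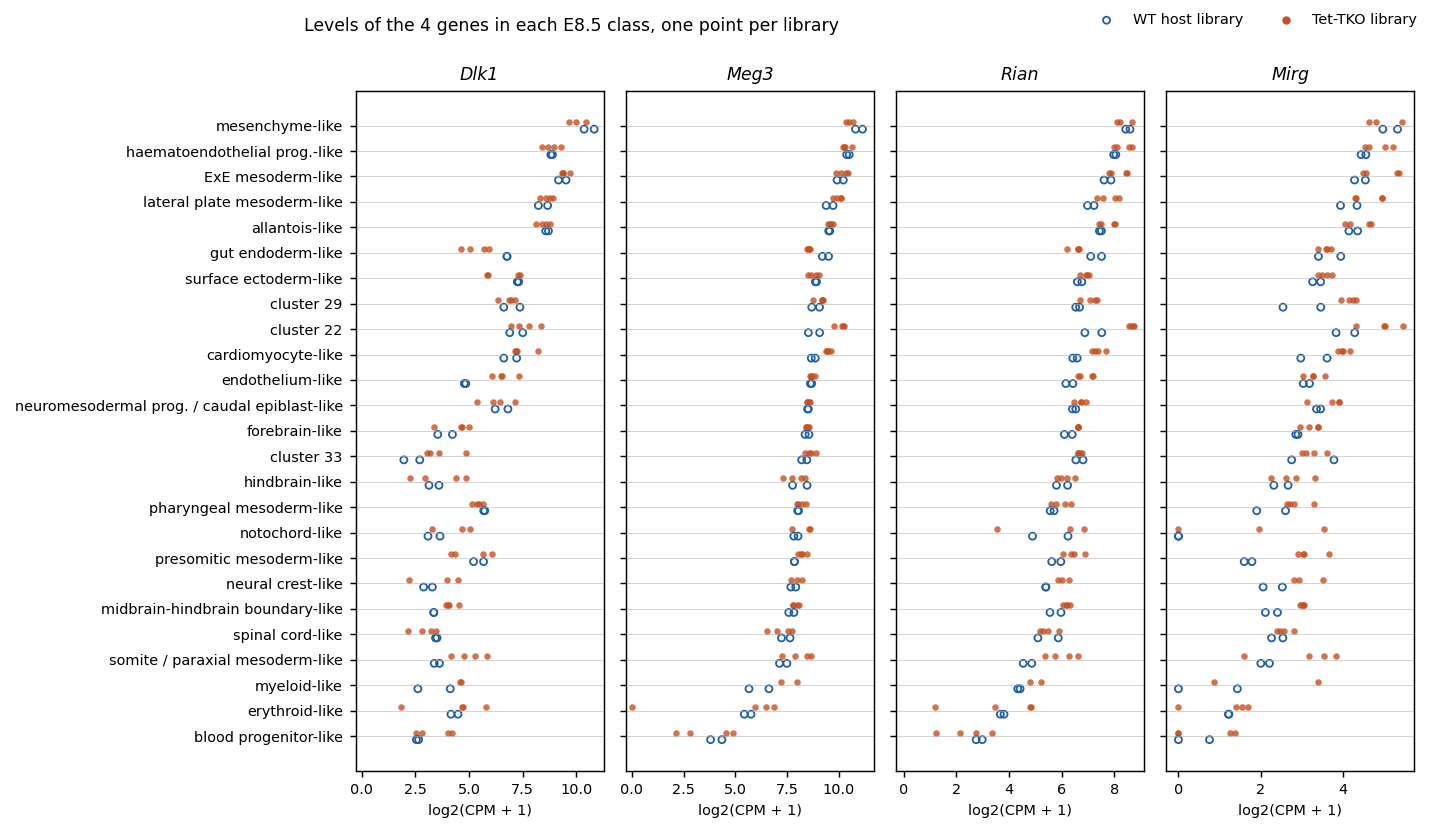
Levels of Dlk1, Meg3, Rian and Mirg in 25 classes at E8.5, as log2(CPM + 1) on the x axis, with 1 filled point per Tet-TKO library and 1 open point per WT host library and classes ordered by Meg3 in the WT host. Mesenchyme-like cells are at the top of each gene in the WT host (Dlk1 1323 and 1832 CPM), and Dlk1 is low in the neural classes, where Meg3 is at 148 CPM or more in the WT host.

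Over 25 classes of the WT host, log2(CPM + 1) of Meg3 followed that of Rian with a Pearson r of 0.98 and that of Mirg with 0.87, and Rian followed Mirg with 0.89. The correlations of Dlk1 with the other three were between 0.78 and 0.80. In the Tet-TKO the values were 0.98, 0.96 and 0.97 among the non-coding RNAs and 0.79 to 0.84 for Dlk1. The profile over classes in the WT host correlated with that in the Tet-TKO at 0.95 for Dlk1, 0.94 for Meg3, 0.94 for Rian and 0.88 for Mirg. These points are classes of the same libraries and share their depth, so the values describe the profiles and were not tested. Among 7632 genes with a mean of at least 10 CPM, those most like Meg3 were Gm37899 (r = 0.98), B830012L14Rik (r = 0.94) and Ckap4 (r = 0.89). Gm37899 and B830012L14Rik lie between Rian and Mirg on chromosome 12, and both were also among the 3 most like Rian (0.98 and 0.93, then Tmem88 at 0.88) and Mirg (0.86 and 0.89, with Akap12 at 0.87). Rgs5, a marker of pericytes, was most like Dlk1 (r = 0.93), followed by Prdm6 (0.91) and Slc38a4 (0.89), the last an imprinted amino acid transporter.

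Next, the genotypes were compared in the sum of all kept cells at E8.5 with the quasi-likelihood test of edgeR, with calls made at an adjusted p under 0.01 together with an absolute log2 fold change of at least 1. None of the 4 genes was called, yet each was higher in all 4 Tet-TKO libraries than in both WT host libraries. Dlk1 had 257, 293, 175 and 186 CPM in Tet-TKO libraries 1 to 4, beside 161 and 139 CPM in the 2 WT host libraries. The groups did not overlap, and the log2 fold change was 0.54 (SE 0.28, adjusted p = 0.272). Meg3 had 579, 590, 582 and 590 CPM in the Tet-TKO against 453 and 358 CPM in the WT host. Here the Tet-TKO libraries lay close together and the WT host libraries apart, with a log2 fold change of 0.45 (SE 0.13, adjusted p = 0.0693). Rian had 138, 132, 163 and 168 CPM against 111 and 77.4 CPM, a log2 fold change of 0.59 (SE 0.15, adjusted p = 0.0514). Mirg, the least abundant, had 13.9, 12.2, 17 and 17.2 CPM against 10.0 and 6.97 CPM, with a log2 fold change of 0.74 (SE 0.17, adjusted p = 0.0419). The unadjusted p was 0.0984 for Dlk1 and 0.00917, 0.00548 and 0.00386 for Meg3, Rian and Mirg. With DESeq2 the adjusted p was 0.236 for Dlk1, 0.0275 for Meg3, 0.00611 for Rian and 0.00137 for Mirg, and none reached the log2 fold change of 1.

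Of 21075 genes tested, 2.06% were called lower and 0.588% higher in the Tet-TKO, and all 4 Tet-TKO libraries lay above both WT host libraries for 23.1%. The make-up of the libraries moved with the genotype. Erythroid-like cells, in which the 4 genes are low, were 1.02% to 2.22% of the Tet-TKO and 17.4% and 26.6% of the WT host cells, and visceral and yolk sac endoderm-like cells were 0.0209% to 0.395% against 6.61% and 2.50%. Among classes with high levels, ExE mesoderm-like cells were 7.02% to 11.7% of the Tet-TKO against 2.38% and 1.83% of the WT host. Lateral plate mesoderm-like cells were 7.01% to 13.9% against 3.39% and 3.88%. The shares of other such classes overlapped. Mesenchyme-like cells, with the highest levels, were 0.494% to 2.06% against 1.80% and 2.11%. Allantois-like cells were 6.62% to 16.8% against 7.37% and 4.41%, and haematoendothelial progenitor-like cells 1.78% to 4.16% against 2.70% and 1.98%. In a sum over all cells, fewer cells of a type and less RNA per cell cannot be told apart. A further sum left out erythroid-like cells and the extraembryonic ectoderm and endoderm classes (ExE ectoderm-like, visceral and yolk sac endoderm-like, parietal endoderm-like). ExE mesoderm-like, mesenchyme-like and allantois-like cells stayed in. The log2 fold changes were then 0.32 for Dlk1, 0.20 for Meg3, 0.45 for Rian and 0.56 for Mirg. With an equal number of cells drawn per class in every library they were 0.05, 0.16, 0.42 and 0.47. This draw covers only the 21 classes with 10 or more cells in all 6 libraries, and so leaves out mesenchyme-like cells, the class with the highest levels, and visceral and yolk sac endoderm-like, neural crest-like, myeloid-like, notochord-like, primordial germ cell-like, ExE ectoderm-like and parietal endoderm-like cells.

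Each class was then tested alone. The classes come from the same libraries, so they are no independent repeats. Dlk1 passed the filter on low counts in 23 classes, Meg3 and Rian in 25 and Mirg in 19. Of these 92 tests 1 was called higher and 0 lower, beside 0.231% called higher and 0.339% called lower over all genes and classes. At an unadjusted p under 0.05 there were 25 higher and 5 lower, beside 5.71% and 5.81% over all genes and classes. The median log2 fold change over classes was 0.18 for Dlk1, 0.16 for Meg3, 0.40 for Rian and 0.43 for Mirg. Dlk1 spanned -1.26 to 1.85, Meg3 -0.78 to 1.43, Rian -0.72 to 1.44 and Mirg -0.26 to 1.82. Values above 0 were found in 14 classes for Dlk1, 19 for Meg3, 21 for Rian and 17 for Mirg. In some classes Rian was higher mainly in the deep Tet-TKO libraries 3 and 4. For libraries 1 to 4 it had 171, 178, 256 and 259 CPM in allantois-like cells, against 172 and 182 CPM in the WT host. In haematoendothelial progenitor-like cells the values were 255, 272, 372 and 408 against 251 and 266 CPM. In forebrain-like cells, by contrast, all 4 lay together (98.5, 97.5, 98.0 and 98.8 against 83.6 and 67.8 CPM). The part of depth in this was not tested. Every Tet-TKO library lay above every WT host library in 4 classes for Dlk1, 4 for Meg3, 11 for Rian and 7 for Mirg, where 10.7% of all gene and class pairs did so, and below in 2, 2, 1 and 0 classes, where 13.6% did.

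**Figure D2:**
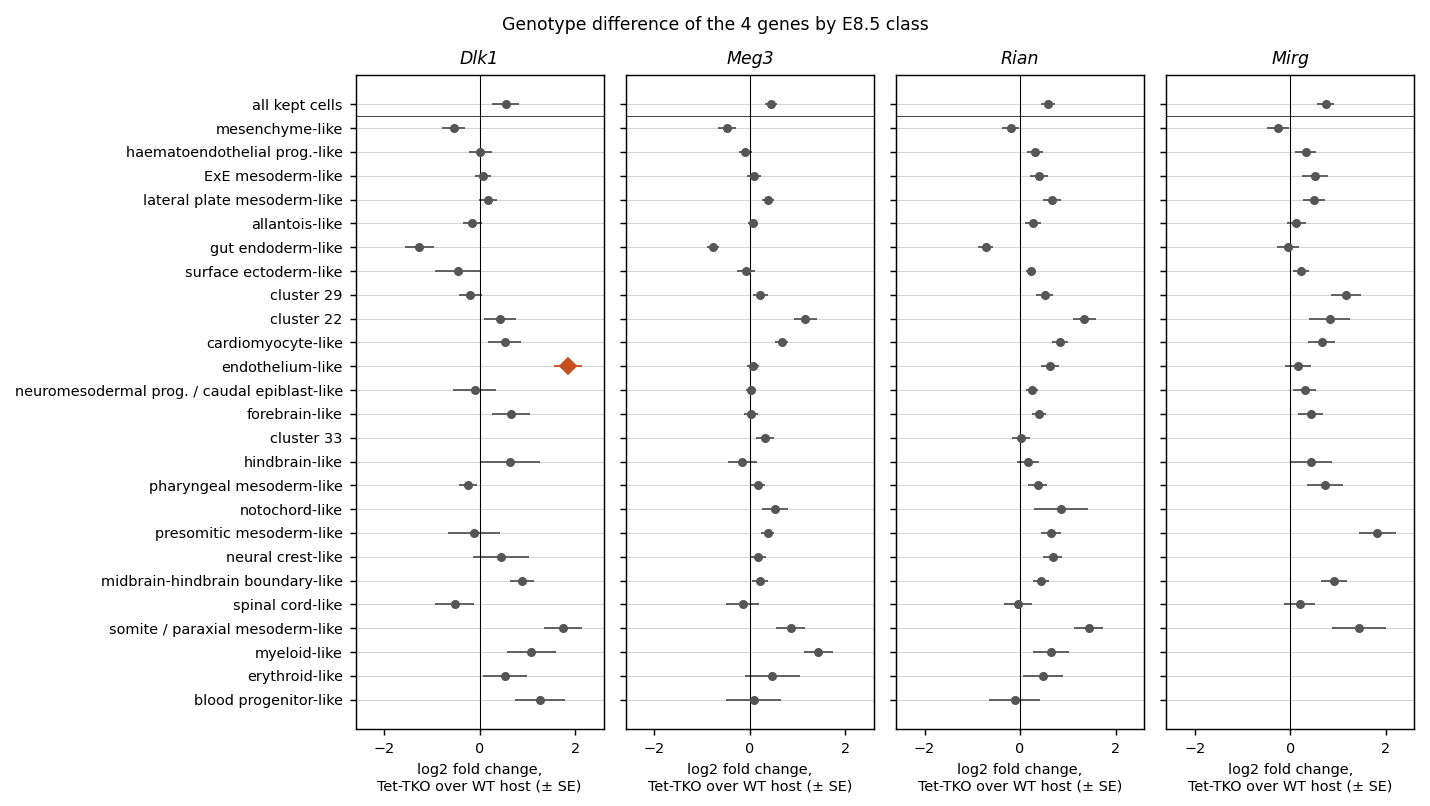
Log2 fold change of Tet-TKO over WT host for the 4 genes in all kept cells and in each class at E8.5, with bars of 1 SE from edgeR and a diamond where the gene was called. The only diamond is Dlk1 in endothelium-like cells at 1.85, and gut endoderm-like cells hold the lowest values of Dlk1, Meg3 and Rian.

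Endothelium-like cells (1 cluster, leading genes Lyve1, Emcn, Icam2 and Cdh5) were the only class with a called gene of the 4. Dlk1 was higher in the Tet-TKO, at 67.3, 87.6, 92.9 and 162 CPM in libraries 1 to 4, beside 27.8 and 26.4 CPM in WT host cells. These levels rest on 225, 313, 151 and 120 UMIs of 189, 296, 40 and 19 cells, and on 108 and 78 UMIs of 310 and 279 cells. The lowest Tet-TKO library lay above both WT host libraries, and Dlk1 rose by a log2 fold change of 1.85 (SE 0.29, adjusted p = 0.00647), in a class where 0.237% of 10532 genes were called higher. For 859 of these genes every Tet-TKO library lay above every WT host library. The call was lost without Tet-TKO library 3 (adjusted p = 0.0113), WT host library 1 (0.114) or WT host library 2 (0.127), with log2 fold changes of 1.87, 1.94 and 1.80. None of the 3 non-coding RNAs was called in these cells. Meg3 had 388, 398, 455 and 411 CPM against 409 and 392 CPM, a log2 fold change of 0.06 (SE 0.13, adjusted p = 0.922). Rian differed by 0.63 (SE 0.19, adjusted p = 0.160) and Mirg by 0.17 (SE 0.27, adjusted p = 0.885).

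With each cell thinned to 5000 UMIs, 13.2% to 25.0% of the Tet-TKO and 9.67% to 10.1% of the WT host endothelium-like cells had a Dlk1 UMI (unthinned, 35.1% to 47.4% and 15.1% to 16.5%). In blood progenitor-like cells of the WT host, Dlk1 was at 1.02 and 1.19 times the level that free RNA would give, and in those of the Tet-TKO at 1.74 to 3.01 times, and the thinned share was 0% to 8.04% in the Tet-TKO and 1.42% to 3.15% in the WT host. The median UMI count was 6279 to 39466 in Tet-TKO and 10121 to 11970 in WT host endothelium-like cells, and 14944 to 89999 and 15322 to 19143 in blood progenitor-like cells. Markers of other cells in this class were summed as well. The 7 markers of haematoendothelial progenitors, a class with far more Dlk1, summed to 952 to 1364 CPM in the Tet-TKO against 1120 to 1150 CPM in the WT host. The 6 markers of ExE mesoderm summed to 77.1 to 102 CPM against 61.0 to 67.8 CPM, those of mesenchyme to 66.4 to 136 CPM against 67.5 to 82.0 CPM, and the 8 endothelial markers to 1489 to 2084 CPM against 2235 to 2360 CPM. Single ExE mesoderm markers differed. Tdo2 was at 4.05 to 10.8 CPM against 0.773 and 2.03 CPM, and Hand1 at 0 to 14.9 CPM against 4.12 and 4.74 CPM. Markers of allantois, also a class with more Dlk1, summed to 2.46 to 3.92 CPM against 5.67 to 7.12 CPM. Those of visceral and yolk sac endoderm summed to 1.35 to 20.9 CPM against 67.5 to 83.4 CPM. Several further lists did not overlap between the genotypes. For example, the erythroid markers summed to 8.09 to 77.8 CPM in Tet-TKO against 581 to 1652 CPM in WT host cells, the blood progenitor markers to 64.8 to 103 against 123 to 131 CPM, the myeloid markers to 1.35 to 7.17 against 28.1 to 32.2 CPM and the neural crest markers to 115 to 247 against 89.7 to 92.5 CPM. The part of all these cells in the Dlk1 difference was not tested.

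**Figure D3:**
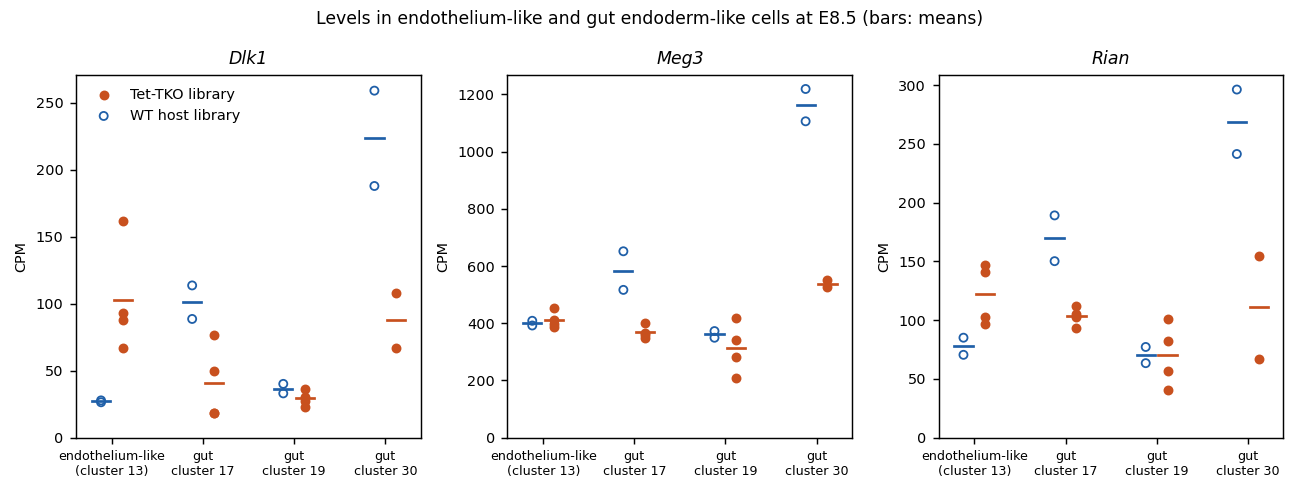
CPM of Dlk1, Meg3 and Rian in the endothelium-like cluster and in the 3 gut endoderm-like clusters at E8.5, with 1 filled point per Tet-TKO library, 1 open point per WT host library of at least 10 cells, and bars at the means. Dlk1 is above the WT host in every Tet-TKO library of the endothelium-like cluster (67.3 to 162 against 26.4 and 27.8 CPM), and both Dlk1 and Meg3 are below the WT host in gut cluster 30.

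Gut endoderm-like cells held the opposite order. Dlk1 had 50.9, 60.6, 31.8 and 24 CPM in the Tet-TKO against 108 CPM in both WT host libraries, a log2 fold change of -1.26 (SE 0.30, adjusted p = 0.0796). Meg3 had 371, 350, 362 and 380 CPM against 720 and 585 CPM, a log2 fold change of -0.78 (SE 0.12, adjusted p = 0.0123). Rian had 98.7, 73.6, 98.8 and 101 CPM against 182 and 137 CPM, a log2 fold change of -0.72 (SE 0.16, adjusted p = 0.0537). All Tet-TKO libraries lay below both WT host libraries for these 3 genes, and none was called. The same order was found for 2138 of the 12294 genes tested in this class. Mirg differed by -0.05 (SE 0.23, adjusted p = 0.962). Dlk1 was called lower with DESeq2 (-1.28, adjusted p = 0.0072), without the filter on low counts (-1.30) and after removal of doublets (-1.52, adjusted p = 0.00832). The first 2 of these settings also called more genes than the main test in all kept cells.

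The class holds 3 clusters, which were fitted alone after the values of the class had been seen. In cluster 30 (leading genes Spink1 and Dio3) only Tet-TKO libraries 1 and 2 had 10 or more cells, 85 and 26, against 311 and 116 in the WT host. Dlk1 had 108 and 67.3 CPM there against 188 and 259 CPM, and fell by 1.10 on the log2 scale (SE 0.20, adjusted p = 0.00398). Meg3 had 551 and 527 CPM against 1219 and 1106 CPM, and fell by 1.02 on the log2 scale (SE 0.13, adjusted p = 5.556e-05). Rian differed by -0.97 (adjusted p = 0.0151) and Mirg by -0.19 (adjusted p = 0.920), and 0.682% of 9094 genes were called lower. In cluster 17 (Nepn, Ihh) the log2 fold changes were -1.17 for Dlk1, -0.60 for Meg3 and -0.65 for Rian, and in cluster 19 (Pax9, Nkx2-3) they were -0.30, -0.19 and -0.01, none of them called. Cluster 30 was 19.5% and 12.2% of the class in Tet-TKO libraries 1 and 2, 5.94% and 3.57% in libraries 3 and 4, which have the lowest Dlk1 of the class, and 26.8% and 21.7% in the WT host. In the WT host this cluster had more Dlk1 and Meg3 than clusters 17 and 19, so the make-up of the class moved with the difference. Within cluster 17 alone, Dlk1 was also lowest in Tet-TKO libraries 3 and 4, with 18.5 CPM in each. Libraries 1 and 2 had 50.1 and 76.4 CPM there, and the WT host had 114 and 88.6 CPM. For cluster 19 the Dlk1 ranges of the genotypes overlapped (Tet-TKO 22.6 to 36.6 CPM, WT host 33.1 and 40.2 CPM). How much of the class difference goes with make-up was not tested. The 8 markers of visceral and yolk sac endoderm, whose cells have high Dlk1 and Meg3, summed to 85.3 to 476 CPM in the Tet-TKO against 1254 to 2433 CPM in the WT host gut endoderm-like cells, and the 7 gut markers to 1532 to 3537 CPM against 2498 to 4630 CPM. Further lists did not overlap either. For example, the erythroid markers summed to 8.85 to 40.9 CPM against 611 to 1235 CPM. Those of somite and paraxial mesoderm summed to 12.6 to 14.9 CPM against 22.3 to 40.8 CPM. Their part in the difference was not tested.

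To ask whether the genotype difference of a class departed from that of the other cells of the same libraries, the class by genotype term was tested. It was called in 9 of 100 tests of the 4 genes, beside 1.03% over all genes and classes. For Dlk1 the difference of log2 fold changes was 1.20 (SE 0.13) in endothelium-like, 1.35 (SE 0.33) in somite and paraxial mesoderm-like, -1.09 (SE 0.21) in spinal cord-like, -1.43 (SE 0.12) in mesenchyme-like and -1.84 (SE 0.12) in gut endoderm-like cells. For Meg3 it was -1.35 (SE 0.06) in gut endoderm-like and -1.05 (SE 0.11) in mesenchyme-like cells, for Rian -1.43 (SE 0.10) in gut endoderm-like cells and for Mirg -1.04 (SE 0.21) in mesenchyme-like cells. Since the other cells differ in make-up, the term was fitted again without their erythroid-like and extraembryonic ectoderm and endoderm classes. ExE mesoderm-like cells were kept among them. This alternative was added after the data had been seen. Dlk1 kept its call in endothelium-like (1.41), somite and paraxial mesoderm-like (1.60), mesenchyme-like (-1.31) and gut endoderm-like cells (-1.62), as did Meg3 (-1.11) and Rian (-1.32) in gut endoderm-like cells. The calls of Meg3 (-0.87) and Mirg (-0.92) in mesenchyme-like and of Dlk1 (-0.82) in spinal cord-like cells were lost. A call was gained for Meg3 in myeloid-like cells (1.19, SE 0.195).

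In mesenchyme-like cells themselves, the class with the highest levels, Dlk1 had 816, 1407 and 1022 CPM in the 3 Tet-TKO libraries with 10 or more cells and 1323 and 1832 CPM in the WT host. The ranges overlapped, and the log2 fold change was -0.55 (SE 0.23, adjusted p = 0.410). Meg3 had 1272, 1623 and 1442 CPM against 1776 and 2242 CPM, a log2 fold change of -0.48 (SE 0.18, adjusted p = 0.305). The 7 mesenchyme markers of this class summed to 2836 to 3161 CPM in the Tet-TKO and 5449 to 6508 CPM in the WT host, the 8 cardiomyocyte markers to 50.6 to 71.3 CPM against 302 to 322 CPM, and the 8 erythroid markers to 13.4 to 34.4 CPM against 443 to 1102 CPM. Their part in the differences of this class was not tested. In somite and paraxial mesoderm-like cells Dlk1 had 16.8, 26.1, 55.4 and 38.0 CPM against 9.38 and 11.3 CPM, a log2 fold change of 1.75 (SE 0.40, adjusted p = 0.122). Rian had 40.4, 52.8, 96.5 and 77.6 CPM against 28.1 and 22.3 CPM there, a log2 fold change of 1.44 (SE 0.30, adjusted p = 0.0796). The 2 groups did not overlap for either gene, and neither was called in the main edgeR test. Of the 9846 genes tested in this class, 722 had every Tet-TKO library above every WT host library. DESeq2 called both Dlk1 and Rian in these cells (adjusted p = 0.00632 and 0.00133), as did edgeR without the filter on low counts (1.794e-07 and 3.314e-08). Both settings also called more genes than the main test in all kept cells. In this class the 6 ExE mesoderm markers summed to 27.7 to 61.9 CPM in the Tet-TKO and 20.7 to 24.5 CPM in the WT host, the 6 parietal endoderm markers to 394 to 451 CPM against 703 to 825 CPM, the 7 mesenchyme markers to 23.3 to 31.6 CPM against 37.0 to 44.9 CPM, the 8 visceral and yolk sac endoderm markers to 6.83 to 9.46 CPM against 30.9 to 57.8 CPM and the 8 erythroid markers to 8.99 to 42.9 CPM against 551 to 1408 CPM. Their part in the difference was not tested.

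Other values near the threshold were found in myeloid-like cells, where Meg3 had 148 and 246 CPM in Tet-TKO libraries 1 and 2 and 97.0 and 49.3 CPM in the WT host, a log2 fold change of 1.43 (SE 0.30, adjusted p = 0.0186). In cardiomyocyte-like cells Meg3 had 670, 699, 682 and 772 CPM against 460 and 403 CPM (log2 fold change 0.67, adjusted p = 0.0438). Rian had 154, 143, 165 and 208 CPM against 95.5 and 84.9 CPM there (0.84, adjusted p = 0.0315). Cluster 22, which is unnamed and has a median UMI count of 0.18 of its library median, gave 1.16 for Meg3 (adjusted p = 0.0374) and 1.34 for Rian (adjusted p = 0.0170). Both were called in cluster 22 by DESeq2 (adjusted p = 0.00118 and 0.000634) and without the filter on low counts (0.00694 and 0.000871). Meg3 in myeloid-like cells was called without the filter and with doublets removed, with log2 fold changes of 1.44 and 1.93. Without Tet-TKO library 1 or 2 the log2 fold change was 1.81 or 1.12, with these 2 summed 1.335, and without WT host library 1 it was 1.99. These last fits left 1 library or sum for a genotype, so its spread could not be measured. In presomitic mesoderm-like cells Mirg had 7.26, 6.46, 7.19 and 11.7 CPM against 2.03 and 2.46 CPM, a log2 fold change of 1.82 (SE 0.38, adjusted p = 0.104), called without the filter (adjusted p = 0.00225). The WT host levels there rest on only 6 UMIs in each library.

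Low levels were read beside free RNA, taken from haemoglobin UMIs in neural cells as 1.03% to 3.42% of the counts of a library. Meg3 in blood progenitor-like cells had 22.3, 28.5, 6.01 and 3.38 CPM in the Tet-TKO against 19.3 and 12.9 CPM in the WT host, where free RNA would give 19.8, 15.2, 6.66 and 6.05 CPM and 13.4 and 11.4 CPM. The level in these cells was thus 0.56 to 1.88 times the free RNA estimate, which is only approximate. Meg3 was higher in erythroid-like cells, at 52.8 and 42.0 CPM in the WT host, but unevenly. The clusters 1 and 3 of this class, marked by haemoglobin genes and Gata1, had 6.21 to 9.91 CPM in the WT host, whereas cluster 31, 11.9% and 11.2% of the class, had 274 and 224 CPM, and 92.8% of its cells were called doublets.

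The expression of other imprinted genes was compared in all kept cells with lists that were chosen with earlier results of these data known. Of 21 paternally expressed genes elsewhere in the genome 5 rose and 0 fell in the Tet-TKO, beside 0.588% called higher over all genes, with a median log2 fold change of 0.93 beside 0.02 over all genes tested. Zdbf2, a zinc finger gene, rose by a log2 fold change of 1.91 (adjusted p = 0.00389), from 25.6 and 29.4 CPM in the WT host to 81.6, 89.1, 135 and 139 CPM. Plagl1, a zinc finger transcription factor, rose by 1.79 (adjusted p = 0.00292), Snrpn, a splicing protein of the Prader-Willi region, by 1.75 (adjusted p = 0.00102) and Magel2, of the same region, by 1.64 (adjusted p = 0.00141). Over classes, 37 of 444 tests of the list were called higher and 1 lower, beside 0.231% and 0.339% over all genes. Snrpn accounted for 16 of them and Zdbf2 for 12. Of 13 maternally expressed genes elsewhere 0 rose and 2 fell, beside 2.06% called lower over all genes. Asb4 fell by 1.89 on the log2 scale (adjusted p = 0.00307), from 28.6 and 26.4 CPM to 7.49, 9.52, 6.37 and 7.73 CPM. Tfpi2 fell by 3.51 on the log2 scale (adjusted p = 0.00389), at levels of 1.51 CPM and less. The list had a median of 0.04, and 11 of 218 class tests were called lower, beside 0.339% over all genes.

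Around the cluster itself, 151 other features lie within 1 Mb, of which 26 could be tested and 0 were called with edgeR, with 2 at an unadjusted p under 0.05 and lower, 3 higher, and 1 called by DESeq2. Over all genes 26.7% had an unadjusted p under 0.05 and 6.86% were called by DESeq2. Begain, at the Dlk1 side, differed by 0.11 (SE 0.21, adjusted p = 0.764). Rtl1, a retrotransposon-derived gene between Meg3 and Rian on the minus strand, differed by 0.86 (SE 0.39, adjusted p = 0.210) at less than 1 CPM. Dio3, which encodes a deiodinase of thyroid hormone, had 2.74, 2.23, 1.16 and 0.999 CPM in the Tet-TKO against 5.21 and 2.86 CPM in the WT host, a log2 fold change of -1.21 (SE 0.49, adjusted p = 0.172). Of 73 annotated microRNAs 12 and of 23 small nucleolar RNAs 5 had any UMI at E8.5, none at 1 CPM or more, so these products are hardly seen by 3′ tags. In all kept cells no gene was called by edgeR among 14 genes that act on imprints (5 at an unadjusted p under 0.05, 2 by DESeq2) or among 18 genes of the Notch pathway (9 and 0), into which Dlk1 is grouped by its structure. Over classes, 1 of 246 tests of the Notch list, Nrarp, was called lower, and 0 of 261 tests of the genes that act on imprints. Of 7 haemoglobin genes 6 fell.

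**Figure D4:**
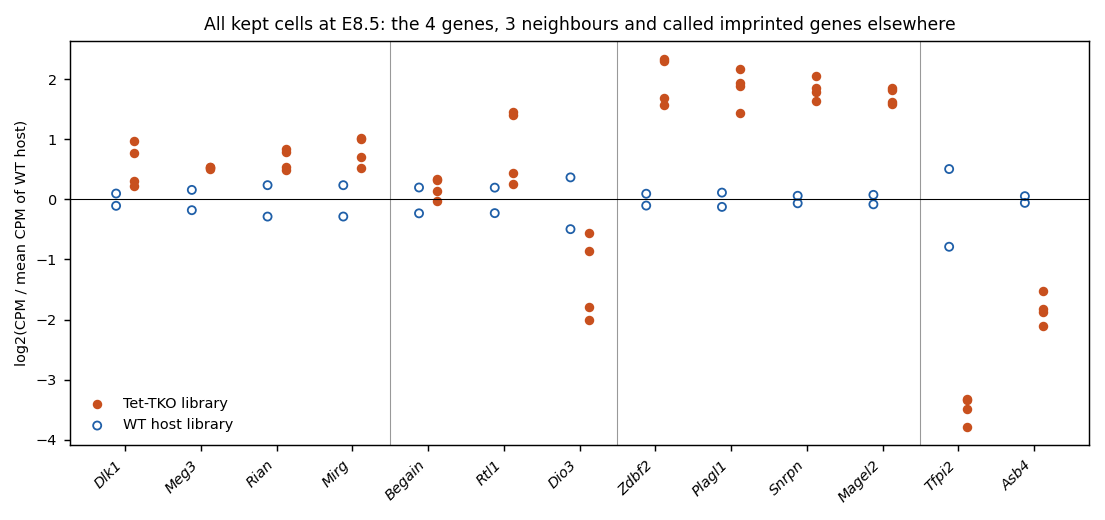
CPM of each E8.5 library over the mean of the WT host, on a log2 axis, for the 4 genes, Begain, Rtl1 and Dio3, and for the called imprinted genes elsewhere, at most 4 per list, in all kept cells. Filled points are Tet-TKO and open points WT host libraries. The 4 genes lie above 0 in every Tet-TKO library, Zdbf2, Plagl1, Snrpn and Magel2 lie above 1 and Asb4 and Tfpi2 below -1.

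At E7.5, 1 library of each genotype was available, so no test was made, and the exact Poisson 95% intervals cover counting error only. In all kept cells Dlk1 had 73.5 CPM (interval 71.9 to 75.2) in the Tet-TKO against 42.8 CPM (41.6 to 44.1) in the WT host. Meg3 had 340 CPM (337 to 344) against 310 CPM (307 to 313), Rian 89.6 CPM (87.8 to 91.4) against 82.8 CPM (81.1 to 84.6), and Mirg 8.28 CPM (7.74 to 8.85) against 8.33 CPM (7.79 to 8.91). The intervals of Mirg overlapped and those of the other three did not. The make-up of these libraries differed as well. There were 14 ExE ectoderm-like cells among 5513 in the Tet-TKO library and 1907 among 7142 in the WT host library, where they had 4.66 CPM of Dlk1 and 129 CPM of Meg3, so the differences over all kept cells and this make-up cannot be told apart. The direction for Dlk1 varied between classes. In haematoendothelial progenitor-like cells Dlk1 had 62.0 CPM (53.8 to 71.1) in the Tet-TKO against 33.7 CPM (27.4 to 41.2) in the WT host. Allantois-like cells had 278 CPM (268 to 289) against 370 CPM (347 to 395). Cluster 21, which was left unnamed because the immune genes Lyz2, Cd74, H2-Aa and Tyrobp are among its leading genes beside the germ cell genes Dppa3, Dnd1 and Nanos3, had 90.2 CPM (75.8 to 107) against 264 CPM (204 to 336). The class with the most Meg3 in the WT host was cluster 20 (leading genes Pga5, Srgn and Spink1), at 1077 CPM in cells of the WT host library.

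In allantois-like cells Meg3 had 482 CPM (468 to 496) in the Tet-TKO against 483 CPM (457 to 511) in the WT host. In visceral and yolk sac endoderm-like cells it had 319 CPM (256 to 393) against 759 CPM (735 to 783), with 56 Tet-TKO and 385 WT host cells. These levels rest on 88 and 3902 Meg3 UMIs. At E8.5 each Tet-TKO library held only 2 to 8 such cells, and whether those of E7.5 came from the injected line was not tested. Gut endoderm-like cells had 266 CPM (243 to 292) against 301 CPM (283 to 320) of Meg3, with overlapping intervals, and 13.1 CPM (8.29 to 19.6) against 7.57 CPM (4.94 to 11.1) of Dlk1. In erythroid-like cells Meg3 was at 16.7 CPM (9.37 to 27.6) and 17 CPM (14.3 to 20.2).

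**Figure D5:**
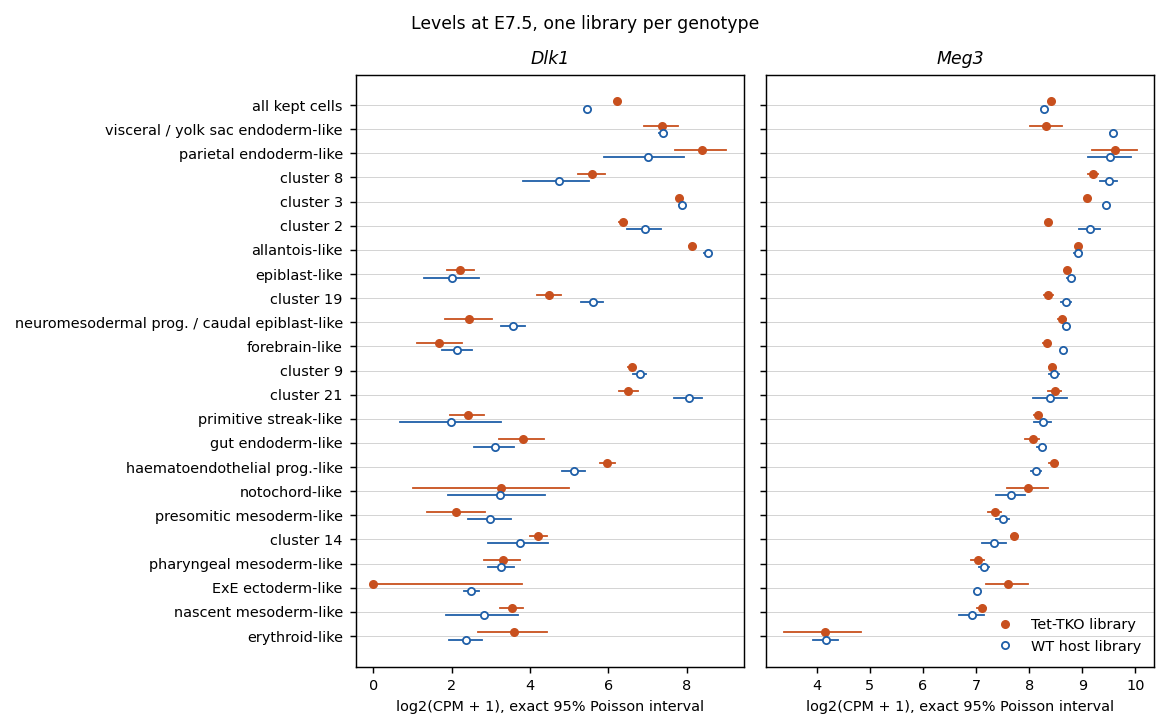
Levels of Dlk1 and Meg3 at E7.5 as log2(CPM + 1) with exact 95% Poisson intervals, in all kept cells and in the classes shown by both libraries, filled for the Tet-TKO and open for the WT host library. Dlk1 in all kept cells is 73.5 CPM in the Tet-TKO against 42.8 CPM in the WT host, and Meg3 is at 340 and 310 CPM.

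Within the Tet-TKO libraries of E8.5, cells with a tdTomato UMI were set beside cells without one, as a check on WT host cells in the sort. Meg3 had 587, 606, 589 and 597 CPM in cells with the UMI and 558, 560, 510 and 450 CPM in those without. Dlk1 had 264, 304, 179 and 191 CPM against 240, 272, 130 and 105 CPM. Both genes were higher in cells with a tdTomato UMI in all 4 libraries, whereas Rian was not in library 1 (137 against 139 CPM). At E7.5 the order was reversed, with 68.1 against 88.1 CPM of Dlk1 and 334 against 359 CPM of Meg3 in cells with and without the UMI. The cells without the UMI also had fewer UMIs, with a median of 5524 against 73895 in E8.5 library 4. After each cell was thinned to 5000 UMIs, which left out 14 to 129 cells with and 56 to 388 cells without the tdTomato UMI per library, the share of cells with a Meg3 UMI was 77.6%, 78.0%, 74.4% and 77.3% with the tdTomato UMI and 76.0%, 74.4%, 70.2% and 54.9% without it, and for Dlk1 44.4%, 46.8%, 34.8% and 36.4% against 43.7%, 43.0%, 25.2% and 31.9%. The order in the 4 E8.5 libraries was the same at this fixed depth, with the smallest gap in library 1. At E7.5 the thinned shares were 68.6% and 68.9% for Meg3 and 19.5% and 24.8% for Dlk1 in cells with and without it.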

How the data were processed

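Reads were aligned by the authors with Cell Ranger (mm10, GRCm38.92 annotation plus tdTomato), and the deposited values are raw UMI counts for each gene in each barcode, not normalized. The header of the counts gives software version 3.1.0, and the methods name a later one. Such 3′ counts see the end of a transcript and not its parental copy. How reads of overlapping or antisense features were treated was not examined.

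Cells with fewer than 1500 UMIs, over 30% mitochondrial UMIs or over 35% ribosomal UMIs were dropped. The 2500 most variable genes, without the 4 genes, their 1 Mb neighbourhood and the listed genes other than haemoglobin, gave 50 principal components. Libraries were aligned on 20 mutual nearest neighbours, followed by Leiden clusters at resolution 2 on 15 neighbours (scanpy 1.11.5, Python 3.11.15). Names needed at least 3 raised markers, and 1 cluster at E7.5 led by immune genes was left unnamed after these were seen. Doublets were called with Scrublet and removed only as an alternative.

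Counts were summed over the cells of a class in a library, where it had 10 or more cells and each genotype 2 such libraries. They were tested with edgeR 4.0.16 in R 4.3.3 (filterByExpr, TMM, glmQLFit, glmQLFTest), with p-values adjusted by Benjamini and Hochberg over all genes of a fit. SE values come from the F statistic. At E7.5 only exact Poisson 95% intervals were given. Tested on simulated sums with 200 genes changed by a log2 fold of 2, edgeR recovered 94.5% in all kept cells (21075 genes), 100% in endothelium-like (10532 genes) and 99.5% in gut endoderm-like cells (12294 genes). The changed genes were drawn only from those above the median level. Every log2 fold change of the 4 genes in the main test was smaller than 2, so this recovery does not give the power to call them.

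The alternatives were DESeq2 1.42.0, edgeR with the size factors of DESeq2, all genes without the filter on low counts, no minimum fold change, each library left out, a replicate block, sums of Tet-TKO libraries 1 with 2 and 3 with 4, cells matched by tdTomato, 3000 UMIs, 30 cells per sum, doublets removed, resolution 1, ambient counts subtracted, no erythroid-like or extraembryonic classes, and equal make-up. The extraembryonic classes left out were ExE ectoderm-like, visceral and yolk sac endoderm-like and parietal endoderm-like, and not ExE mesoderm-like. Single clusters and a second set of other cells were added after the data had been seen.

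The 4 genes, the lists and their tests were chosen with earlier results of these data known. The text names the 4 genes, Begain, Rtl1 and Dio3, the called genes of each list in all kept cells, at most 4 by absolute log2 fold change, and the 3 genes most like each of the 4 over WT host classes. Genes named beside these rules, such as markers and leading genes of clusters, only describe a class. For haemoglobin only the count is given.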

Additional observations from a re-analysis of the deposited data

Results flagged for a closer look

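In 5 of 88 groups of 4 Tet-TKO libraries, 1 library lay apart from the others by Dixon's criterion. By chance about 1 in 20 groups would. Dlk1 in cardiomyocyte-like cells was at 299 CPM in Tet-TKO library 2, where the next library had 149 CPM. In midbrain and hindbrain boundary-like cells the same library had 21.8 CPM of Dlk1, where the next had 15.6 CPM. Rian in gut endoderm-like cells was lowest in Tet-TKO library 2, at 73.6 CPM, with the next at 98.7 CPM. Meg3 in cluster 29, an unnamed cluster, was lowest in Tet-TKO library 1, at 424 CPM, with the next at 574 CPM. Mirg in presomitic mesoderm-like cells was highest in Tet-TKO library 4, at 11.7 CPM, with the next at 7.26 CPM.

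The genotype difference in a class departed from that in the other cells of the same libraries in 9 of 100 tests of the class by genotype term. The difference of log2 fold changes was 1.20 for Dlk1 in endothelium-like cells and 1.35 in somite and paraxial mesoderm-like cells. It was -1.84 for Dlk1, -1.35 for Meg3 and -1.43 for Rian in gut endoderm-like cells. In mesenchyme-like cells it was -1.43 for Dlk1, -1.05 for Meg3 and -1.04 for Mirg. Dlk1 in spinal cord-like cells gave -1.09, at levels near the free RNA estimate in Tet-TKO libraries 1 and 2. The other cells of the WT host libraries held more erythroid-like and visceral and yolk sac endoderm-like cells, and the part of this in the term was tested only by leaving these classes out.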

How the results depend on the processing

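The 4 genes stayed uncalled in all kept cells under 17 alternatives, with the direction kept. With the replicate block their adjusted p was 0.000513, 0.0025, 0.0059 and 0.00336, so that only the minimum fold change left them uncalled. Their log2 fold changes ranged from 0.05 to 0.88 for Dlk1, 0.16 to 0.60 for Meg3, 0.36 to 0.83 for Rian and 0.47 to 0.99 for Mirg. Ambient subtraction cannot alter the sum over all kept cells, and a minimum of 30 cells and resolution 1 do not apply to it. The number of genes called in all kept cells, 558, became 1446 with DESeq2, 949 without a filter on low counts, 1701 with a replicate block, 0 with sums of Tet-TKO libraries 1 with 2 and 3 with 4, 184 without erythroid-like and extraembryonic classes, 71 at equal make-up, and 109 to 230 with a library left out. The cause was not tested, other than that fewer libraries or cells entered some of these fits.

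Over classes, the 1 call of the 4 genes in the higher direction became 5 with DESeq2, 7 without the filter, 8 with the replicate block, 2 with summed Tet-TKO libraries, 2 with doublets removed, 2 at resolution 1 and 0 to 2 with a library left out. The shares called over all genes and classes under these settings are not given here. With DESeq2, without the filter and with the replicate block, more genes were also called in all kept cells. The rise in calls is therefore not read as a result about the 4 genes. The 0 calls in the lower direction became 1 with DESeq2, 1 without the filter and 1 with doublets removed, each Dlk1 in gut endoderm-like cells, and stayed 0 with each library left out. Dlk1 in endothelium-like cells ranged from 1.56 to 2.29 over 18 alternatives, with adjusted p up to 0.127. Without the erythroid-like and extraembryonic ectoderm and endoderm classes among the other cells, some calls of the class by genotype term changed. They were lost for Meg3 (-0.87) and Mirg (-0.92) in mesenchyme-like and for Dlk1 (-0.82) in spinal cord-like cells. A call was gained for Meg3 (1.19) in myeloid-like cells.

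The WT host and Tet-TKO libraries share the numbers 1 and 2, so 4 libraries informed the genotype in the fit with a replicate block. The deviations of same-numbered libraries correlated at 0.38 for number 1 and -0.10 for number 2, but with 2 WT host libraries these deviations mirror each other, so the check cannot decide. The numbers were not taken as pairs because the sources used here do not say that they mark shared pools, although both fractions were sorted from the same pools. The 8 calls with the replicate block were Dlk1 in 5 classes (endothelium-like, blood progenitor-like, hindbrain-like, midbrain and hindbrain boundary-like, somite and paraxial mesoderm-like), Meg3 and Rian in cluster 22 and Mirg in presomitic mesoderm-like cells. Tet-TKO libraries 3 and 4 did not go with all of these Dlk1 calls. In hindbrain-like cells they had 6.586 and 3.795 CPM, below the 7.75 and 11.09 CPM of the WT host. In blood progenitor-like cells they had 6.012 and 4.725 CPM beside 4.829 and 5.256 CPM. Free RNA alone would give 8.79 and 7.55 CPM of Dlk1 in Tet-TKO libraries 1 and 2. In the remaining classes with a Dlk1 call, every Tet-TKO library lay above both WT host libraries. Mirg has few UMIs in most classes, and a class with 19 cells in a library limits what can be seen there.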
